A study of Dugesia japonica with 4 samples.

Results

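The right rim of sections through a regenerating planarian head was compared with the tissue just inside it. A rim spot had at least 1 of its 6 neighbouring array positions off tissue, an interior spot had tissue on all 6, and both lay to the right of the mean array column of their section. A section was a connected group of at least 5 tissue spots, and 48 were found. The rule kept 555 of 1216 tissue spots (45.6%), of which 379 were right rim and 176 right interior. Another 598 section spots lay on the left, 10 lay exactly on the mean column and 53 lay in groups of under 5 spots. The array's right is a direction on the slide, and the labels do not say which side of the animal it holds, nor whether all sections were laid down facing the same way.

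The tissue was the head blastema of wild-type (WT) Dugesia japonica at 5 dpa, frozen fresh, embedded in OCT and cut from front to back into sections 8 µm thick, which were stained with H&E. The 4 Visium libraries, here wells A, B, C and D, form 1 group with 1 genotype and 1 time, so each comparison is between places within the same sections. The labels give no age, and they do not say whether the wells hold different animals, so p-values concern the spread between these 4 libraries, which may be technical. Visium reads polyadenylated RNA from barcoded spots laid out in a hexagonal pattern, and 1 spot covers a small region in which several cells, also of different types, can lie.

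Planarians are flatworms that regrow lost body parts from a population of dividing stem cells, the neoblasts. A blastema is the bud of new tissue that forms at a wound, and stem cell progeny move into it and differentiate. In a section through the body, the outline is formed by a single-layered epidermis with muscle beneath it, while the inside holds parenchyma, nervous tissue and, outside the newest tissue, gut. The features carried 28999 DJKW and 9793 Maker identifiers, and 0 of the 38792 had a gene symbol, so neither the tissue label nor any of these layers could be checked against marker genes, and nothing is said of what a gene does.

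The right rim held 68, 65, 110 and 136 spots in wells A, B, C and D, and the right interior 16, 18, 69 and 73. Interior spots came from 44 of the 48 sections, and 142 of the 176 lay in wells C and D. Summed UMIs (unique molecular identifiers, each a captured RNA molecule) were 580412, 609387, 1050628 and 923451 in the rim and 164545, 308058, 986898 and 978983 in the interior. The interior of well A therefore rests on the fewest molecules. No pair of wells agreed within sampling noise in either zone (lowest chi-square per degree of freedom 5.37). Well A stood apart: its 6 comparisons with another well gave 19.4 to 24.8, and those among wells B, C and D 5.37 to 10.3. The zones also differed in place: rim spots lay 2.16 ± 0.715 array columns to the right of the section mean and interior spots 1.01 ± 0.515 (SD, n = 4). Of the interior spots, 88.5% ± 9.47 lay in the middle of the section's length (relative array row 0.25 to 0.75), against 57.0% ± 6.05 of rim spots (SD, n = 4).

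**Figure D1:**
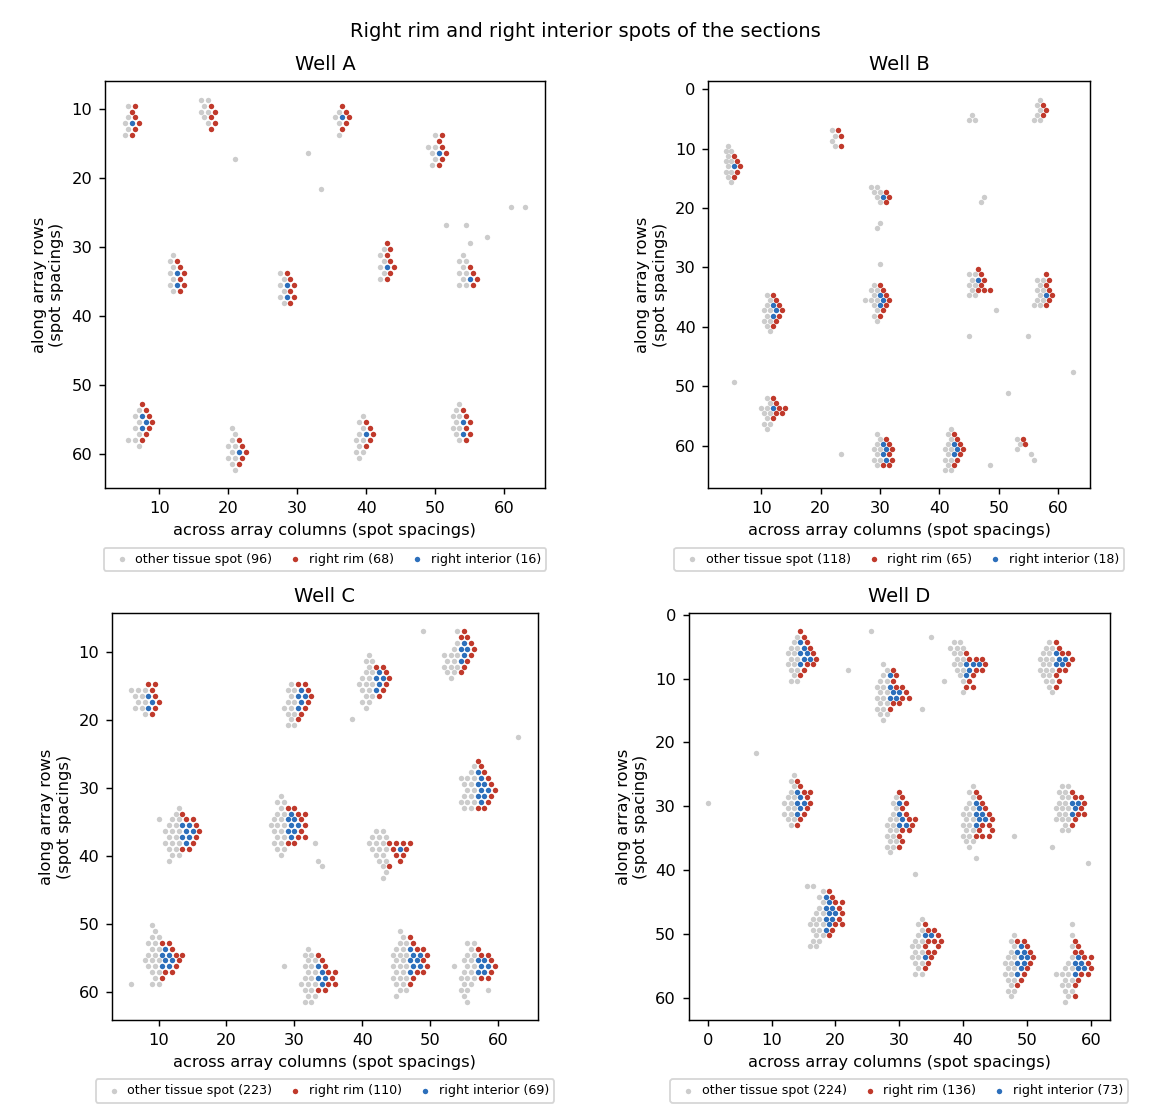
Array positions of the tissue spots in wells A to D, with right rim and right interior spots coloured and other tissue spots in grey (axes in spot spacings). The 379 right rim spots outline the right side of each section, and 142 of the 176 right interior spots lie in the wider sections of wells C and D.

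Interior spots carried more RNA molecules than rim spots in every well. The median UMI count per spot was 8688.5, 7374, 7809.5 and 5911.5 in the rim of wells A to D, and 9850, 17149, 13588 and 12194 in the interior. The interior was higher in 4 of 4 wells, by a ratio of 1.82 ± 0.514 (SD, n = 4), which was lowest in well A at 1.13 and highest in well B at 2.33. On the left the same ratio was 1.04 ± 0.113 (0.909, 0.997, 1.17 and 1.08 by well), lower than on the right in 4 of 4 wells. Each of these 2 comparisons gave an exact two-sided sign-flip permutation p = 0.13, the smallest that 4 wells allow. More RNA per cell and more cells under a spot cannot be told apart in these sums, and for any single gene neither can fewer cells of a type and less RNA per cell.

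At equal depth the interior held fewer genes per spot in every well. Unthinned, the median spot had 2970 ± 356 genes in the interior and 2479 ± 306 in the rim. Thinned to 2000 UMIs each, which left out 1, 5, 0 and 11 rim spots of wells A to D and 0 interior spots, it had 918 ± 112 genes in the interior and 1042 ± 29.9 in the rim (SD, n = 4). The interior was lower in 4 of 4 wells, by between 8 genes in well A and 190 in well D. The 100 most abundant features took 44.0% ± 5.79 of interior and 37.7% ± 2.62 of rim UMIs, and Maker features took 0.637% ± 0.126 and 1.14% ± 0.150 (SD, n = 4). The difference ran one way in 4 of 4 wells for all 3 quantities, each at the exact two-sided sign-flip p = 0.13.

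The main comparison asked which genes differ between the right rim and the interior beside it. Of 6278 genes tested, 556 were higher in the rim (8.86% of those tested) and 926 were higher in the interior (14.7%), 23.6% in all, by edgeR's quasi-likelihood test on counts summed per well and zone, with the well as a block (Benjamini-Hochberg adjusted p under 0.05). The median log2 difference of all tested genes was 0.04, so directions are relative to a centre near 0. The median called gene was higher in the rim by 1.18 on the log2 scale, and its interior counterpart stood at -1.04. These directions differed in form. The large differences were mostly rim genes, with 103 genes at least 4-fold higher in the rim and 21 at least 4-fold higher inside. Among the abundant genes, the called ones were more often interior-higher. Of 729 tested genes over 200 CPM (CPM puts the sums on 1 common total, here with TMM factors), 246 were higher inside (33.7%) and 82 in the rim (11.2%), the rest being called in neither direction, whereas under 50 CPM the numbers were 301 and 291 of 3628.

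The called genes made up much of the RNA. The 926 interior-higher genes took 42.2% ± 12.9 of interior UMIs and 23.2% ± 5.53 of rim UMIs (SD, n = 4), with well A lowest in the interior at 23.3% and well D highest at 52.2%. The 556 rim-higher genes took 13.7% ± 2.44 of rim UMIs and 5.56% ± 1.11 of interior UMIs. These shares describe genes chosen on the same counts. None of the called genes was at 0 in the other zone over all wells. Maker identifiers made up 20 of the 556 rim-higher genes (3.6%), 5 of the 926 interior-higher genes (0.54%) and 93 of the 6278 tested (1.48%).

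The direction was the same in 4 of 4 wells for 509 of the 556 rim-higher genes (91.5%) and 733 of the 926 interior-higher genes (79.2%), beside 36.5% of all tested genes whatever their p. The log2 ratios of the wells correlated across the 6278 genes with Pearson r = 0.753 between C and D, 0.598 and 0.609 between B and those wells, and 0.332 to 0.399 between A and the others. Genes are not independent replicates. The part of depth in the low values of well A, which has the smallest sums, was not tested. The rim of well A held 580412 UMIs beside 609387 in well B, and its interior 164545 beside 308058. The counts leaned on wells C and D. Without well C they were 295 in the rim and 538 inside of 5746 tested, and without well D 234 and 522 of 5760. Wells C and D alone gave 937 rim-higher genes (13.6%) and 1181 interior-higher genes (17.1%) of 6914. Of the genes so called, 812 and 1101 were among those tested over all 4 wells. The calls had not used wells A and B, but the filter of the main test had, without requiring a UMI in each well. Of the 812, 74.0% were higher in the rim in well A and 87.6% in well B, beside 51.9% of all tested genes in each. Of the 1101, 70.0% were higher inside in well A and 91.5% in well B, beside 47.0% and 47.9% of all tested genes. Of these 1101, 25.4% were higher in the rim in well A and 7.81% in well B, and the rest were tied.

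The balance of the directions depended on the scaling. With library totals alone in place of TMM factors, 1476 genes were higher in the rim and 548 inside, so that 72.9% of called genes were rim-higher in place of 37.5%, and the median log2 difference of all tested genes moved from 0.04 to 0.35. The 1476 include all 556 genes of the main test, and the 548 are all among its 926. Rim spots drawn to match the interior in number and UMI count gave 351 and 641 calls of 4949 genes tested. The matched spots still had somewhat fewer UMIs, with interior to rim ratios of the median from 1.01 in well A to 1.34 in well D.

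**Figure D2:**
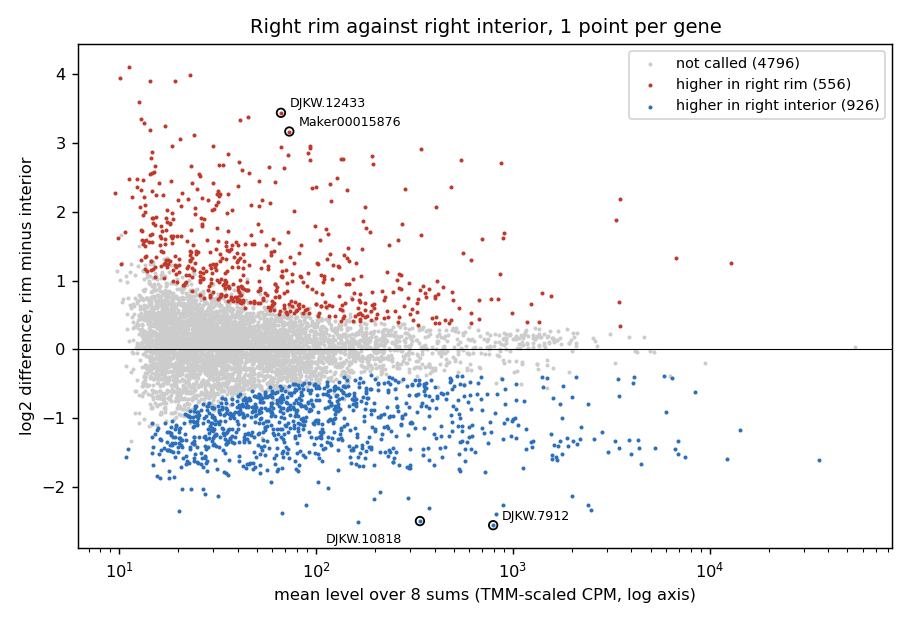
Log2 difference between right rim and right interior against the mean level over the 8 sums (TMM-scaled CPM, log axis), 1 point per tested gene. The 556 rim-higher genes (red) reach larger differences at low levels, and the 926 interior-higher genes (blue) include most of the abundant called genes.

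Of the rim-higher genes that met the rule for naming, DJKW.12433 differed most. It stood at 126, 87.1, 83.4 and 191 CPM in the rim of wells A to D and at 10.4, 7.37, 7.52 and 18.2 CPM in the interior. Every rim value lay far above every interior value. The interior values rest on 2, 2, 6 and 13 UMIs in wells A to D, and the rim values on 86, 56, 91 and 173. The means were 122 ± 50.04 and 10.9 ± 5.09 CPM (SD, n = 4), a log2 difference of 3.43 ± 0.22 (SE) or 10.8-fold (edgeR adjusted p = 7.30e-07). The rim exceeded the interior in 42 of the 44 sections with both zones and fell below it in 2. DJKW.12433 was spread over the rim, where the 10 richest of 379 spots held 17.5% of its 406 UMIs. After thinning to 2000 UMIs it was detected in 26.8% ± 6.45 of rim and 2.76% ± 3.19 of interior spots (SD, n = 4), and without thinning in 55.4% and 13.1%.

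Maker00015876 was the second rim gene. Its rim levels were 98.0, 138, 123 and 177 CPM in wells A to D, and its interior levels 0, 11.1, 17.6 and 21.0 CPM. The interior levels of wells B, C and D rest on 3, 14 and 15 UMIs. The groups did not overlap, and the means were 134 ± 33.0 and 12.4 ± 9.25 CPM (SD, n = 4). The fitted log2 difference was 3.16 ± 0.25 (SE), 8.95-fold (edgeR adjusted p = 1.63e-06). In well A no molecule was seen among 164545 interior UMIs. For a count of 0 an upper limit of 3 counts was taken, here 18.2 unscaled CPM (without TMM factors). The rim there held 67 UMIs, or 115 unscaled CPM, which is 6.33 times that limit. The rim was higher in 43 of 44 sections, the interior was higher in 0, and 1 section was tied. Thinned detection was 25.1% ± 6.88 of rim and 1.43% ± 2.05 of interior spots (SD, n = 4), against 49.6% and 14.8% without thinning.

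Both named interior genes had levels that varied strongly from well to well. DJKW.7912 stood at 35.1, 54.4, 315 and 400 CPM in the rim of wells A to D and at 109, 350, 1347 and 3739 CPM in the interior. The interior was the higher zone within every well, but the rim of wells C and D lay above the interior of well A, so the groups overlapped across wells. Means were 201 ± 184 CPM in the rim and 1386 ± 1657 in the interior (SD, n = 4). With the well as a block the log2 difference was -2.55 ± 0.21 (SE), 5.85-fold higher inside (edgeR adjusted p = 1.65e-06). Without the block the log2 difference was -2.78 and the call was lost (edgeR adjusted p = 0.18). The interior was higher in 31 sections and the rim in 9. In well A, where levels were lowest, the numbers were 4 and 3, with 21 interior and 24 rim UMIs of the gene.

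DJKW.10818 followed the same order of wells. Its levels were 14.6, 37.3, 126 and 180 CPM in the rim of wells A to D and 57.2, 103, 643 and 1537 CPM in the interior. Again each interior value exceeded the rim value of its own well while the ranges overlapped between wells. In well A the direction rests on 11 interior and 10 rim UMIs, and in well B on 28 and 24. The means were 89.4 ± 77.1 and 585 ± 688 CPM (SD, n = 4), with a log2 difference of -2.49 ± 0.22 (SE), 5.61-fold higher inside (edgeR adjusted p = 2.34e-06). Without the block the log2 difference was -2.71 (edgeR adjusted p = 0.171). The interior was higher in 30 sections and the rim in 7, and in well A the numbers were 2 and 3.

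Within the interior both genes were unevenly spread. The 10 richest of 176 interior spots held 43.5% of the 3857 interior UMIs of DJKW.7912 and 44.5% of the 1648 of DJKW.10818. Thinned detection of DJKW.7912 was 51.1% ± 18.3 of interior and 17.8% ± 19.4 of rim spots (SD, n = 4), and that of DJKW.10818 was 33.8% ± 26.1 and 11.7% ± 11.6. Without thinning, DJKW.7912 was detected in 83.5% of interior and 43.3% of rim spots, and DJKW.10818 in 71.0% and 31.4%. When each spot was log-normalised on its own, with 1 added to its scaled counts, and the spots of a zone were then averaged with equal weight, the 4 named genes differed by 0.92 for DJKW.12433, 0.84 for Maker00015876, -1.23 for DJKW.7912 and -0.87 for DJKW.10818. All 4 passed the threshold there too (limma adjusted p from 1.85e-05 to 0.00471). That scale is compressed for low counts, and its values are not the same quantity as the differences of the sums.

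**Figure D3:**
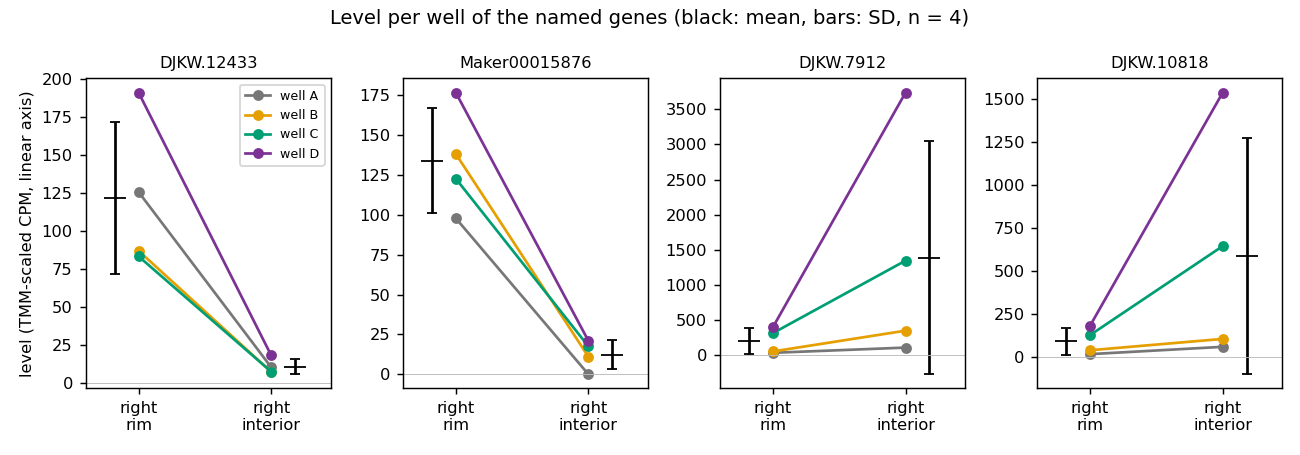
Levels of the 4 named genes in right rim and right interior (TMM-scaled CPM), with 1 point per well, lines joining the zones of a well, and the mean and SD of 4 wells. DJKW.12433 and Maker00015876 separate the zones without overlap, while DJKW.7912 and DJKW.10818 are higher inside in every well from very different starting levels.

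The next question was whether the change was a step at the rim or a graded one. Right spots were put in 4 layers: 152 exposed rim spots with at least 3 off-tissue neighbours, 227 flat rim spots with 1 or 2, 155 interior spots touching the rim, and 21 deep interior spots not touching it, which occurred only in wells C (14) and D (7). Levels in these layers are unscaled CPM, from the layer's own UMI total without TMM factors, averaged over wells, as a description without a test. Of the steps between layers, only that from exposed to flat rim was tested, with the results given below. DJKW.12433 went from 233 to 72.5 to 9.14 unscaled CPM over the first 3 layers, and Maker00015876 from 203 to 110 to 7.81, lower at each step in 4 of 4 wells. DJKW.7912 went from 103 to 248 to 1002 and DJKW.10818 from 54.5 to 108 to 433, higher at each step in 3 of 4 wells (not in B). Each interior gene was higher again in the deep layer than in the layer before it in both wells that had one. Maker00015876 was also higher in the deep layer than in the layer touching the rim in both wells, at 32.8 unscaled CPM over few UMIs.

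**Figure D4:**
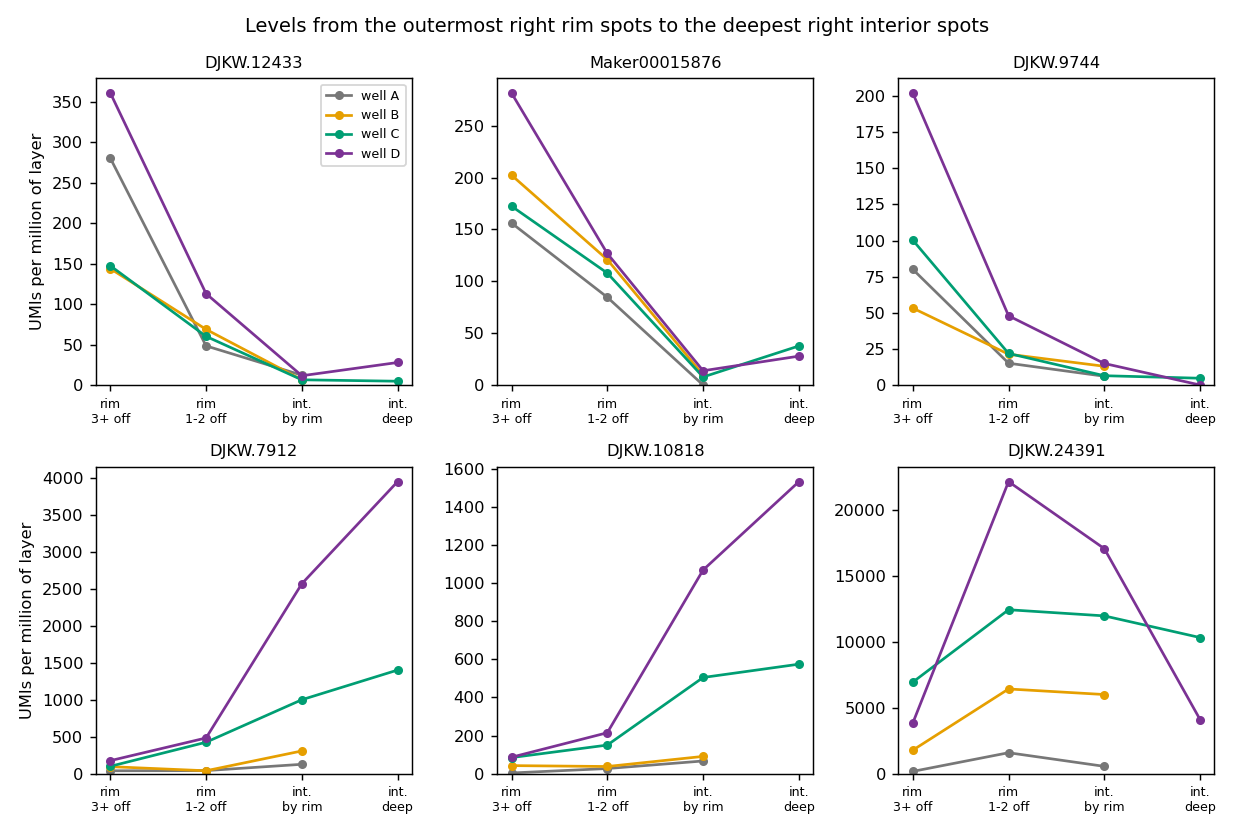
Levels (unscaled CPM, the UMIs of a gene per UMI total of the layer) in the 4 right layers from the most exposed rim spots to the deep interior, with 1 line per well, for the 4 named genes and for DJKW.9744 and DJKW.24391, which are described with the exposed rim. DJKW.12433, Maker00015876 and DJKW.9744 are lower at each of the first 3 layers in every well, DJKW.7912 and DJKW.10818 higher in 3 of 4, and DJKW.24391 is highest in flat rim spots.

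Within the right rim itself, exposed and flat spots differed. Of 4216 genes tested, 152 were higher in exposed spots (3.61%) and 134 were lower (3.18%), 6.78% in all, by edgeR's quasi-likelihood test with the well as a block (adjusted p under 0.05). The direction held in 4 of 4 wells for 145 of the 152 and 79 of the 134. Of the genes named for rim against interior, DJKW.12433 was higher in exposed spots by 1.43 on the log2 scale (edgeR adjusted p = 0.00369). Maker00015876 was higher by 0.68 (edgeR adjusted p = 0.0187). DJKW.10818 differed by -1.21 (edgeR adjusted p = 0.0227), while DJKW.7912, at -1.35, did not pass the threshold (edgeR adjusted p = 0.0905). Exposed spots were also shallower, with a median of 5936 ± 1109 UMIs against 9216 ± 1542 in flat spots (SD, n = 4), lower in 4 of 4 wells (exact two-sided sign-flip p = 0.13). The part of depth in these calls was not tested. Without well C the counts were 61 and 59 of 4041 tested, without well D 89 and 67 of 4377, and without well B 192 and 291 of 4288. Among spots in the middle of the section length they were 77 and 39 of 2628 tested.

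DJKW.26548 led the genes of exposed rim spots. It stood at 390, 67.7, 465 and 218 CPM in exposed spots of wells A to D and at 64.0, 35.9, 46.7 and 101 CPM in flat spots. Exposed spots were higher in every well, although the exposed value of well B lay below the flat value of well D. The means were 285 ± 178 and 61.8 ± 28.4 CPM (SD, n = 4), a log2 difference of 2.17 ± 0.34 (SE; edgeR adjusted p = 0.00369). A single right rim spot of well C held 118 of its 426 right rim UMIs (27.7%), and without that spot, left out after seeing the data, the log2 difference was 1.49 (edgeR adjusted p = 0.0113). The right rim averaged 243 unscaled CPM of it at the ends of the section length and 36.2 in the middle. In the middle it did not pass the filter, so exposure and place along the length were not separated for this gene.

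DJKW.9744 was more even. Its levels were 79.5, 56.4, 103 and 210 CPM in exposed and 15.2, 24.8, 25.8 and 62.4 CPM in flat spots. Exposed spots were higher in every well, and only the flat value of well D reached into the exposed range. The log2 difference was 1.82 ± 0.23 (SE; edgeR adjusted p = 0.00123). It was also higher in the rim as a whole than in the interior, by 2.25 ± 0.30 on the log2 scale (SE; edgeR adjusted p = 7.49e-05), and was lower at each step over the first 3 layers in 4 of 4 wells.

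Both named genes of the other direction differed more between flat and exposed rim than between rim and interior. DJKW.24391, an abundant feature, stood at 175, 1889, 7098 and 3996 CPM in exposed spots of wells A to D and at 1607, 7475, 14648 and 28817 CPM in flat spots. Flat spots were higher in every well, while the ranges overlapped between wells, and the log2 difference was -2.22 ± 0.29 (SE; edgeR adjusted p = 0.0016). Between rim and interior it differed by -0.19 ± 0.18 (SE; edgeR adjusted p = 0.494). Its mean was 3185 unscaled CPM in exposed rim, 10651 in flat rim and 8900 in interior spots touching the rim.

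DJKW.19637 was the other such gene. Exposed spots had 3.98, 28.2, 144 and 60.1 CPM and flat spots 24.4, 168, 409 and 570 CPM in wells A to D. In well A these rest on 1 exposed and 8 flat UMIs, and in well B on 5 and 61. Flat spots were again the higher class within every well, with overlap between wells, at a log2 difference of -2.28 ± 0.28 (SE; edgeR adjusted p = 0.00121). Its rim to interior difference was smaller, -0.59 ± 0.17 (SE; edgeR adjusted p = 0.0188). Among spots in the middle of the section length neither gene passed the threshold, with log2 differences of -1.86 for DJKW.24391 and -1.48 for DJKW.19637 (edgeR adjusted p = 0.145 and 0.119).

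The right rim was then set against the left one. The left side held 443 rim and 155 interior spots and gave 763 rim-higher genes (11.0%) and 742 interior-higher genes (10.7%) of 6936, 21.7% in all, by the same edgeR test. The left interior held 6, 12, 70 and 67 spots in wells A to D, with 47497 UMIs in A and 139632 in B. Of the rim-higher genes 331 were shared, which is 59.5% of the right list and 43.4% of the left one. Of the interior-higher genes 625 were shared, 67.5% of the right list and 84.2% of the left one. A single gene was called in opposite directions on the 2 sides. The right rim-higher genes tested on both sides (547) had a median log2 difference of 1.16 on the right and 1.05 on the left, and the right interior-higher genes (855) of -0.998 and -0.951, beside 0.01 for all genes tested on the left. The named genes stood on the left at 2.90 ± 0.24 for DJKW.12433, 2.08 ± 0.28 for Maker00015876, -2.64 ± 0.19 for DJKW.7912 and -2.53 ± 0.22 for DJKW.10818 (log2 difference ± SE). For none of the 4 did the sides differ in the test of the difference itself (edgeR adjusted p from 0.621 to 0.9996).

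**Figure D5:**
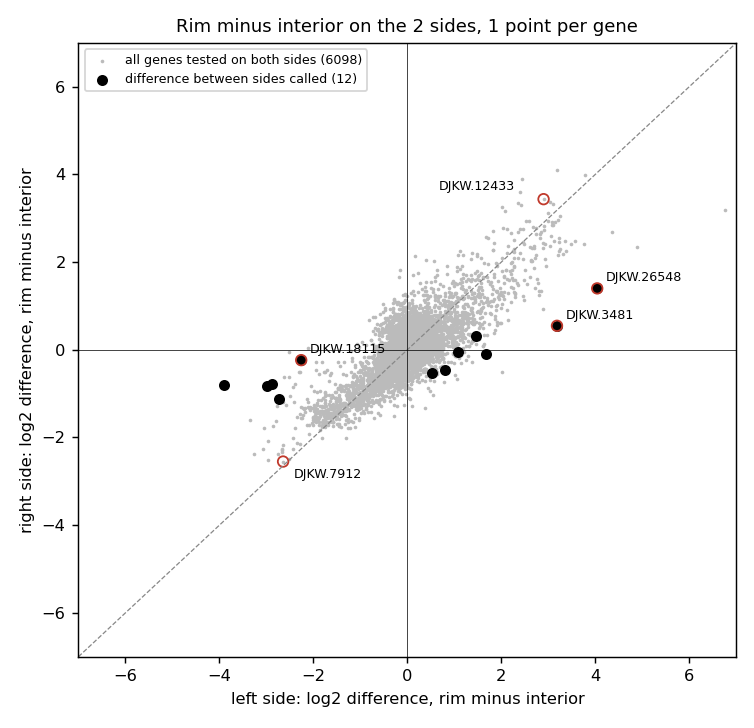
Log2 difference between rim and interior on the right against that on the left, 1 point per gene tested on both sides (6098). Black points mark those 12 of the 15 genes called for a difference between sides that were tested on both. Rings mark DJKW.26548, DJKW.3481, DJKW.18115, DJKW.12433 and DJKW.7912. The dashed diagonal marks equal differences on both sides, and DJKW.26548 and DJKW.3481 lie far to the right of it.

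The test of that difference, the interaction of zone and side, called 15 of 7640 genes (0.196%). For 7 the rim minus interior difference was higher on the right (0.0916%) and for 8 it was lower (0.105%), while 587 genes (7.68%) had an unadjusted p under 0.05. This test is less precise than that of 1 side, with a median SE of 0.39 on the log2 scale against 0.24, so a low count does not show that the sides are alike. All 8 genes lower on the right were higher in the rim than in the interior on the left by the edgeR test, and all 8 differed the same way in 4 of 4 wells. The 7 in the other direction did so in 1 case only, DJKW.18115, of which well A held 1 UMI. Each well weighed on these counts. They were 46 and 17 of 7899 tested without well A and 17 and 4 of 8196 without B. They were 8 and 2 of 7380 without C, and 0 and 4 of 7320 without D. They also depended on the spots near the midline. Leaving out spots within 2 array columns of the section mean leaves wells C and D only, with 15 and 5 left interior spots in them. Of 5706 genes tested there, 32 were higher on the right and 174 lower. Wells C and D with all their spots, fitted after seeing the data, gave 62 and 12 of 7967.

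DJKW.26548, met above as the leading gene of exposed rim spots, had its highest level in the left rim. It stood at 177, 41.8, 172 and 127 CPM in the right rim of wells A to D and at 16.2, 20.3, 59.5 and 84.3 CPM in the right interior. In the left rim it stood at 706, 544, 1114 and 1248 CPM and in the left interior at 14.8, 14.1, 59.5 and 103 CPM. The left interior levels of wells A and B rest on 1 and 2 UMIs, and the right interior ones on 3 and 5. The left rim was above every other zone in every well, without overlap, and the interiors averaged 45.1 ± 32.6 CPM on the right and 47.8 ± 42.4 on the left (SD, n = 4). The difference was 1.40 ± 0.27 on the right and 4.04 ± 0.21 on the left, and the sides differed by -2.72 ± 0.39 (log2 ± SE; edgeR adjusted p = 0.001), from -4.06 to -2.08 by well.

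DJKW.3481 had the same pattern. It stood at 246, 81.9, 415 and 229 CPM in the right rim of wells A to D and at 1099, 830, 1898 and 1911 CPM in the left rim. The left rim was again the higher in every well, without overlap. The means were 243 ± 136 CPM in the right rim, 166 ± 105 in the right interior, 1435 ± 554 in the left rim and 159 ± 75.1 in the left interior (SD, n = 4). The right rim did not differ from the right interior beyond the threshold (log2 difference 0.55 ± 0.22, edgeR adjusted p = 0.0962), whereas the left rim exceeded its interior by 3.18 ± 0.17. The sides differed by -2.72 ± 0.30 (SE; edgeR adjusted p = 5.39e-05), with well A smallest at -0.99 and well B at -3.87. The left interior of wells A and B held 10 and 8 UMIs of this gene.

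Both genes sat at the ends of the sections. In rim spots outside the middle of the section length, DJKW.26548 averaged 243 unscaled CPM on the right and 1751 on the left, and in the middle of the length 36.2 and 44.6. DJKW.3481 averaged 395 and 2726 unscaled CPM at the ends, and 119 and 139 in the middle. Among spots in the middle of the length only, the difference between the sides did not pass the threshold, at 0.01 for DJKW.26548 and -0.30 for DJKW.3481 (edgeR adjusted p = 0.999 and 0.797). The single spot of well C named above also held 209 of the 829 right rim UMIs of DJKW.3481 (25.2%). It lay close to its section's mean column, and without it the sides differed more, by -3.25 for DJKW.26548 and -3.04 for DJKW.3481.

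In the other direction DJKW.18115 alone met the rule for naming. Its means were 66.0 ± 74.5 CPM in the right rim, 82.8 ± 94.2 in the right interior, 26.3 ± 27.3 in the left rim and 127 ± 122 in the left interior (SD, n = 4). Nearly all of it was in wells C and D, at 137 and 123 CPM in the right rim and 234 and 232 CPM in the left interior, and well A held a single UMI. Well B held 2 UMIs in the right rim, 1 in the right interior, 8 in the left rim and 4 in the left interior. The values of 2.63 in well A and 1.54 in well B therefore rest on very few molecules, and the 4 of 4 direction with them. The right zones did not differ beyond the threshold (log2 difference -0.24 ± 0.19, edgeR adjusted p = 0.426), while the left rim lay below its interior by -2.26 ± 0.21. The sides differed by 1.93 ± 0.29 (SE; edgeR adjusted p = 0.0022). Without well C the value was 2.06 and without well D 1.98, and neither passed the threshold (edgeR adjusted p = 0.129 and 0.194). Without spots near the midline it was 0.81 (edgeR adjusted p = 0.385), while wells C and D with all their spots gave 1.99 (edgeR adjusted p = 3.06e-05).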

How the data were processed

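The data are 4 libraries of unnormalised UMI counts, 1 matrix each, deposited by the authors and made with Space Ranger 2.0.1 per the file headers. Seurat is named in the submitters' processing notes without its role. Genome build: not given in the sources used here. Zones were set from the deposited spot positions alone. The authors' counts were summed per well and zone. The main test was edgeR 4.0.16 (R 4.3.3), with its filterByExpr and TMM steps, the quasi-likelihood F-test and the well as a block. The pairing comes from the zones lying on the same sections. The SE is the log2 difference over the square root of F. For the sides, 16 sums were fitted with a block per well and side. Levels in CPM are TMM-scaled counts. Named genes had an adjusted p under 0.05, 1 direction in 4 of 4 wells and a mean of at least 50 CPM, at most 2 per direction by size of difference. DESeq2 1.42.0 and limma 3.58.1 served as alternatives, beside other scalings, filters and choices of spots. The limit given for a count of 0 covers counting error only. Each SD is over the 4 wells, and each SE also takes in the spread between wells that the fit leaves. RNA spreading between neighbouring spots was not separated. The fits were tested on simulated data with 1 dispersion for all genes, which is simpler than the spread between these wells. Of planted 2-fold differences, the main test recovered 80.6%, the exposure test 70.1% and the test of the sides 10.4%. At 4-fold the test of the sides recovered 80.3%. Zones, comparisons and alternatives were chosen with earlier results of these data known, and alternatives added later are named as such.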

Additional observations from a re-analysis of the deposited data

Results flagged for a closer look

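The difference between rim and interior was not the same on the right and on the left for 3 named genes, by edgeR's test of the difference itself. It was lower on the right by -2.72 on the log2 scale for DJKW.26548 (adjusted p = 0.001, lower in 4 of 4 wells) and by -2.72 for DJKW.3481 (adjusted p = 5.39e-05, 4 of 4 wells). It was higher on the right by 1.93 for DJKW.18115 (adjusted p = 0.0022, 4 of 4 wells), with 1 UMI of that gene in well A. Few molecules also lay in well B, so a direction is measurable in wells C and D mainly. Over 23 sets of 4 wells, a check for outlying values flagged 0, where chance gives about 1.15. With 4 values per set, that does not show that the wells are alike. Well A stood apart in the comparisons of whole sums (chi-square per degree of freedom 19.4 to 24.8) and in the correlations of log2 ratios (0.332 to 0.399).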

How the results depend on the processing

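Beside 556 rim-higher and 926 interior-higher genes, and on the same 6278 tested, DESeq2 called 302 and 594 and library totals 1476 and 548. A fit of these without the replicate block called 153 and 204. UMI-matched rim spots gave 351 rim-higher genes of 4949, wells C and D alone 937 of 6914, and limma on means over spots 537 interior-higher ones of 6278. Leaving out 1 well gave 234 to 821 and 522 to 1179, of 5746 to 6940 tested. Without a filter the counts were 750 and 987 of 16497. Without near-midline spots, possible in wells C and D alone, they were 390 and 633 of 4524. The number tested differed between these settings, so the counts are not shares of 1 total. Of the called genes, 2 at most were called in the opposite direction under any alternative.

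For the difference between sides, 7 higher and 8 lower on the right of 7640 tested became 2 and 4 with DESeq2 and 3 and 2 with library totals. They became 49 and 26 of 18595 without a filter, and 4 and 5 with a well block and a side term. Without near-midline spots, which leaves wells C and D only, they became 32 and 174 of 5706. With all spots of wells C and D, added after seeing the data, they were 62 and 12 of 7967. Without the replicate block edgeR called 0 and 0 (181 genes at an unadjusted p under 0.05; DESeq2 with the block called 2 and 4). Leaving out 1 well gave 0 to 46 and 2 to 17, of 7320 to 8196 tested.

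For exposure, 152 and 134 of 4216 tested became 66 and 88 with DESeq2, 241 and 383 of 15548 without a filter, and 77 and 39 of 2628 in the middle of the section length. They became 0 and 0 without the replicate block (308 at an unadjusted p under 0.05; DESeq2 with the block called 66 and 88). Library totals gave 250 and 115, and leaving out 1 well 61 to 192 and 59 to 291, of 4041 to 4466 tested.

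The UMI ratio was 1.65 to 2.04 without 1 well, and the difference in thinned genes per spot -162 to -101. Of 150 values of named genes under alternatives, 134 kept direction and side of the threshold and 15 kept the direction but missed the threshold, 9 of them without the block. The value of DJKW.26548 between sides turned from -2.72 to 0.0079 in the middle of the section length. DJKW.18115 stood at 0.81 without near-midline spots (edgeR adjusted p = 0.385). For exposure in the middle of the section length DJKW.26548 has no value, since it did not pass the filter there. The causes were not tested. Depth limits the right interior of well A (16 spots) and well B (18 spots) most among the right zones. In the test of the sides the left interior was thinner still, with 6 spots in well A and 12 in well B.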
